A study of Mus musculus with 6 samples.

Results

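The genes of MHC class II antigen presentation were examined in the colon of mice prone (OP) or resistant (OR) to obesity. The 7 genes *H2-Aa*, *H2-Ab1*, *H2-Eb1*, *H2-DMa*, *H2-DMb1*, *Cd74* and *Ciita* were taken by their symbols from the 17778 genes of the deposited table, and all 7 were found and passed the filter on low values. All mice were male C57BL/6J mice fed a high-fat diet with 60% of energy from fat for 16 weeks, to an age of 21 weeks. Of 42 such mice, the 10 with the highest weight gain were defined as OP and the 10 with the lowest as OR, so the groups differ in an outcome and not in a treatment or a genotype. RNA of the colon was sequenced from 3 mice of each group, with 1 library per mouse, and how these were chosen from the 10 of each group was not found in the sources used here.

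MHC class II molecules sit on the surface of dendritic cells, macrophages and B cells, where they show peptides of engulfed proteins to CD4 T cells. In the gut, epithelial cells also carry them once they are induced, with interferon gamma as the best known inducer. An alpha chain and a beta chain pair in the endoplasmic reticulum with the invariant chain, which fills the peptide groove and leads the complex to endosomes. There proteases trim the invariant chain down to a short remnant, the DM heterodimer exchanges this remnant for a peptide, and the DO heterodimer restrains DM. The genes are switched on together by the coactivator CIITA, which binds no DNA itself and docks on the factors RFX, CREB and NF-Y at paired X and Y boxes of their promoters. C57BL/6 mice make the I-A molecule from *H2-Aa* and *H2-Ab1* and lack a surface I-E molecule, because the alpha chain gene *H2-Ea* is not expressed on this background. *H2-Ea* was not analysed here.

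The promoters are shown first because the X and Y boxes are the sequence feature through which these genes are known to be switched on together. RefSeq promoter windows of build GRCm38.p6, from 250 bases before to 50 bases after a start site, were at hand for 4 of the 7 genes. The windows were searched on both strands for the Y box core CCAAT and for an X box core (AG, AC and ATG in this order, each 2 bases apart), whose matches did not overlap. The X box core was found in 3.09% of 32851 windows of all genes, the Y box core in 37.4% and both in 1.42%. *H2-Eb1* and *H2-DMb1* held both cores, with the X box core at 92 to 82 bases before the start of *H2-Eb1* and at 95 to 85 bases before that of *H2-DMb1*. *H2-Aa* held the Y box core, and *H2-DMa* held it in 1 of its windows. No promoter sequence was at hand for *H2-Ab1*, *Cd74* and *Ciita*. The stretch from 130 to 26 bases before the start, with the matches of both cores in capitals, is given for a gene with both cores and for a gene with the Y box core, at chr17:34305737-34305841 on the plus strand for *H2-Eb1* and at chr17:34287849-34287953 on the minus strand for *H2-Aa*.
H2-Eb1: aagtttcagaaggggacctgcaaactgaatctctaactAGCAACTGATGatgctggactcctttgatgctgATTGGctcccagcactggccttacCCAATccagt
H2-Aa: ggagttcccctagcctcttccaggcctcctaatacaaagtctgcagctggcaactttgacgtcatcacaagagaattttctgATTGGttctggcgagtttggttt
In both stretches the Y box core appears as its reverse complement ATTGG, and *H2-Eb1* has a further match as CCAAT. A match of letters is a description of the window and shows no binding. The X box search used 1 fixed pattern of letters. A window without a match, as for *H2-Aa*, can therefore still hold an X box with other letters.

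The values are given in FPKM, which scales the fragments of a gene to its length and to the mapped fragments of the mouse, so that genes can be compared with each other. They summed to between 585350 and 600028 per mouse, and the number of reads is unknown. OP mouse 1 stood apart from the other mice, since it had the lowest value of the 6 mice in 54.1% of the 13520 genes tested, against 5.21% to 17.2% for each other mouse. After median-of-ratios scaling, which evens out such shifts between mice, OP mouse 1 was the lowest in 25.8% of the genes. The fold changes and the spread of the class II genes are therefore also given without OP mouse 1. The epithelial genes *Krt8* and *Car1*, a keratin and a colonic carbonic anhydrase, were abundant in all 6 mice.

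*H2-Aa* encodes the alpha chain of I-A. It had 74.91, 332.92 and 192.19 FPKM in OP mice 1, 2 and 3, and 151.39, 130.18 and 123.19 FPKM in OR mice 1, 2 and 3. OP mouse 1 was thus below all OR mice, OP mice 2 and 3 were above all of them, and the groups overlapped. The means were 200.01 ± 129 FPKM (SD, n = 3) in OP mice and 135 ± 14.7 FPKM (SD, n = 3) in OR mice. On the log2(FPKM + 1) scale, on which all fold changes here were fitted and which shrinks those of weakly expressed genes, the log2 fold change of OP over OR came to 0.33 (standard error 0.48, adjusted p = 0.949 by limma-trend with Benjamini-Hochberg adjustment over all genes tested), with a 95% interval from -0.79 to 1.44. The two-sided exact permutation test of the FPKM gave p = 0.6, where 3 mice against 3 allow no p below 0.1.

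*H2-Ab1*, the beta chain that pairs with it, had 72.56, 238.62 and 166.07 FPKM in the OP mice and 126.6, 107.63 and 100.99 FPKM in the OR mice. The mice came in the same order as for *H2-Aa*. The means were 159 ± 83.3 FPKM (SD, n = 3) in OP mice and 112 ± 13.3 FPKM (SD, n = 3) in OR mice, with a log2 fold change of 0.35 (standard error 0.39, adjusted p = 0.945). *H2-Eb1*, the beta chain of I-E, had 36.32, 87.39 and 82.37 FPKM in the OP mice and 61.25, 56.7 and 48.48 FPKM in the OR mice. Its order of the mice was again the same, though OP mice 2 and 3 lay closer together. The log2 fold change of *H2-Eb1* was 0.21 (SE 0.32, adjusted p = 0.951). For both beta chains the two-sided exact permutation test gave p = 0.4.

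*H2-DMa* and *H2-DMb1* encode the alpha and a beta chain of the peptide editor DM. *H2-DMa* had 5.43, 23.93 and 16.23 FPKM in the OP mice and 16.74, 11.18 and 11.51 FPKM in the OR mice. OP mouse 1 was the lowest, OP mouse 2 the highest, and OP mouse 3 lay within the range of the OR mice. The fitted log2 fold change was 0.01 (SE 0.47, adjusted p = 0.996), and the sign turned under a smaller pseudocount. *H2-DMb1* had 5.1, 44.45 and 14.64 FPKM in the OP mice and 19.39, 11.37 and 12.93 FPKM in the OR mice. The value of OP mouse 2 was 2.29 times that of the highest OR mouse, and OP mouse 3 again lay among the OR mice. The fitted log2 fold change was 0.10 (SE 0.65, adjusted p = 0.985). Both genes gave p = 0.8 in the two-sided exact permutation test. In the mouse transcripts of GENCODE M21, 31.4% of the 31-base words of *H2-DMb1* also occur in its paralog *H2-DMb2*, so the split of reads between these is uncertain, and the share was at most 1.41% for each of the other 6 genes. The sum of *H2-DMb1* and *H2-DMb2* was 9.13, 46.48 and 29.46 FPKM in the OP mice and 22.3, 13.89 and 14.4 FPKM in the OR mice. In this sum OP mouse 1 remained the lowest and OP mouse 2 the highest, while OP mouse 3 rose above all OR mice.

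*Cd74*, the invariant chain, had 116.73, 710.36 and 343.3 FPKM in the OP mice and 293.56, 225.1 and 190.5 FPKM in the OR mice. OP mouse 1 was the lowest and OP mouse 2 the highest, at 2.42 times the highest OR mouse, and OP mouse 3 was also above all OR mice. The means were 390.1 ± 299.6 FPKM (SD, n = 3) in OP mice and 236 ± 52.4 FPKM (SD, n = 3) in OR mice, with a log2 fold change of 0.39 (standard error 0.58, adjusted p = 0.950) and a two-sided exact permutation p = 0.6. *Ciita*, the coactivator, was the least abundant of the genes, with 0.92, 3.46 and 3.72 FPKM in the OP mice and 1.89, 1.51 and 1.26 FPKM in the OR mice. It was the only one of the 7 genes in which OP mouse 3 and not OP mouse 2 was the highest. Its means were 2.70 ± 1.55 FPKM (SD, n = 3) in OP mice and 1.55 ± 0.317 FPKM (SD, n = 3) in OR mice, with a log2 fold change of 0.43 (standard error 0.35, adjusted p = 0.945) and a two-sided exact permutation p = 0.4.

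**Figure D1:**
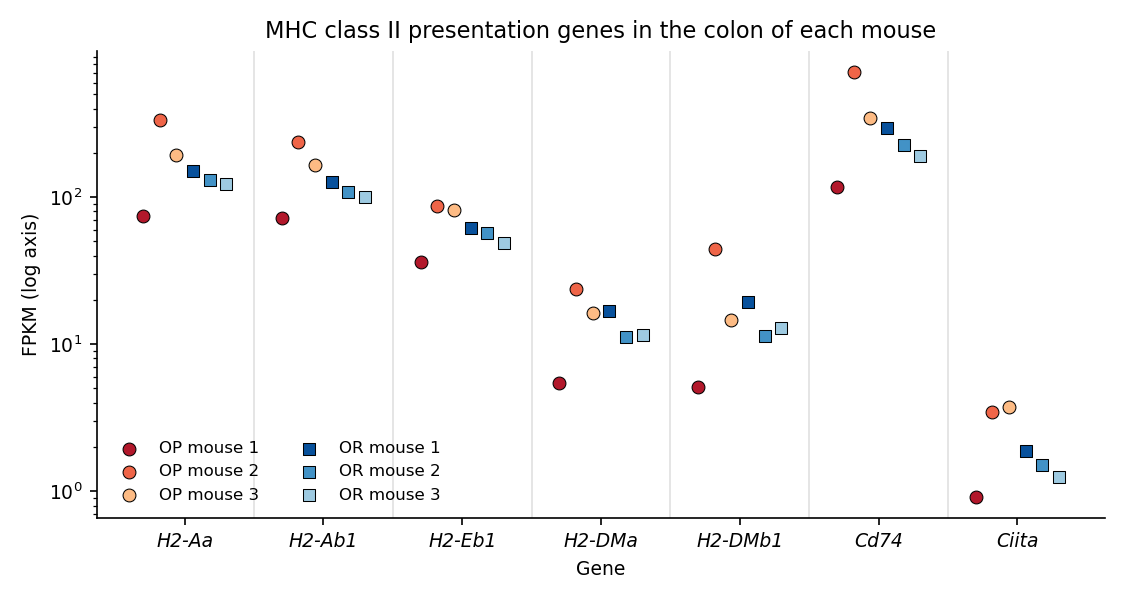
FPKM of the 7 genes on a log axis, with 1 point per mouse (circles for OP, squares for OR). OP mouse 1 is the lowest point of all 7 genes, OP mouse 2 is the highest of 6, and the 3 OR mice lie between them.

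Across the 7 genes, the fitted log2 fold changes were all above 0, from 0.01 to 0.43, with a median of 0.33 against -0.10 for all 13520 genes tested. By the thresholds of the study (a fold change from 1.2 upwards or from 0.83 downwards, and an adjusted p below 0.2), limma-trend called 0 of the 7 genes, against 0.0222% of all genes. At an unadjusted p below 0.05 it also called 0 of the 7, against 4.03% of all genes. In 0 of the 7 the groups were apart, against 8.44% of all genes. The 95% intervals of the log2 fold changes were 1.51 to 3.05 wide, with lower bounds from -1.42 to -0.40 and upper bounds from 0.96 to 1.75. Beside the spread between mice, a difference between the groups was therefore not detectable in any of the 7 genes.

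The spread lay within the OP mice. The highest OP mouse had between 2.41 times (*H2-Eb1*) and 8.72 times (*H2-DMb1*) the value of the lowest OP mouse, whereas the OR mice spanned between 1.23 times (*H2-Aa*) and 1.71 times (*H2-DMb1*). On the log2(FPKM + 1) scale, the SD among the OP mice was 0.70 to 1.45 with a median of 1.01, and the SD among the OR mice was 0.15 to 0.38 with a median of 0.18. Over all genes tested the medians were 0.29 and 0.18. The SD of the 7 genes ranked between the 91.7th and the 98.8th percentile of all genes among the OP mice, and between the 42.3rd and the 86.7th among the OR mice, where *H2-DMb1*, *Cd74* and *H2-DMa* ranked highest. In 7 of 7 genes the SD of the OP mice was over 2 times that of the OR mice, which was also the case in 36.5% of all genes. These SDs rest on 3 mice each, and the measure was chosen after the values had been seen. Without OP mouse 1, the median SD of the 7 genes among the OP mice fell to 0.38, from 0.06 (*H2-Eb1*) to 1.09 (*H2-DMb1*), at the 17.8th to the 97.6th percentile, and it was above the SD of the OR mice in 5 of the 7 genes. The fold between the remaining OP mice was 1.06 for *H2-Eb1* and 3.04 for *H2-DMb1*, the ends of the range. Over all genes tested, the median SD among the OP mice was 0.18 without OP mouse 1. For the 7 genes the median SD was 0.95 without OP mouse 2 and 1.38 without OP mouse 3. By this median, which then rests on 2 OP mice, most of the spread among the OP mice came with OP mouse 1. Without it *H2-DMb1* was the most widely spread of the 7 genes, but not the only one above the OR mice.

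**Figure D2:**
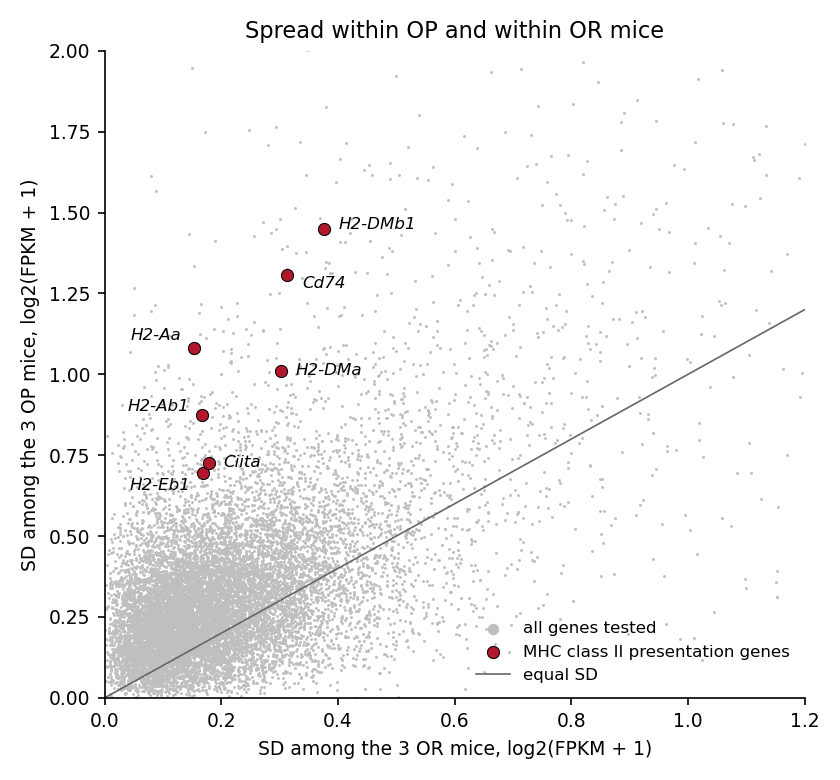
SD among the 3 OP mice against the SD among the 3 OR mice on the log2(FPKM + 1) scale, for each gene tested (grey) and for the 7 genes (red); 85 genes lie outside the axes. The 7 genes lie well above the line of equal SD, with OP values from 0.70 to 1.45.

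OP mouse 1 was the lowest of the 6 mice in 7 of 7 genes, against 54.1% of all genes tested. OP mouse 2 was the highest in 6 of 7, against 13.1% of all genes. Both held in 6 of the 7 genes and in 7.68% of all genes tested. After median-of-ratios scaling OP mouse 1 was the lowest and OP mouse 2 the highest in 7 of the 7 genes, and both held in 5.66% of all genes. OP mouse 3 was above all OR mice in 5 of the 7 genes, the exceptions being *H2-DMa* and *H2-DMb1*. The share of all genes in which this held was not counted, and OP mouse 3 was the highest of all 6 mice in 24.6% of them. Summed over the 7 genes, the values made up 0.0520%, 0.246% and 0.136% of the FPKM total in OP mice 1, 2 and 3 and 0.114%, 0.0912% and 0.0815% in OR mice 1, 2 and 3. The sum was 4.62 times as high in OP mouse 2 as in OP mouse 1 and 1.76 times as high as in OP mouse 3, while the highest OR mouse had 1.37 times the sum of the lowest. The labels give no separate batch, and whether the order of the OP mice follows their weight was not analysed here.

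Leaving out OP mouse 1 moved all 7 log2 fold changes up, to a median of 0.83. They were 0.91 for *H2-Aa*, 0.83 for *H2-Ab1*, 0.61 for *H2-Eb1*, 1.08 for *Cd74* and 0.85 for *Ciita*, the 5 genes in which both remaining OP mice were above all OR mice and which had an unadjusted limma-trend p below 0.05. *H2-DMa* had 0.57 and *H2-DMb1* had 0.81 and did not pass that level. Among all 13453 genes then tested, 3.03% had an unadjusted p below 0.05, 0.721% were also higher in OP mice, and in 5.62% both OP mice were above all OR mice. None of the 7 genes was called at the study's thresholds without OP mouse 1 (adjusted p = 0.9996 for each of them by limma-trend), and 0% of all genes were. Leaving out OP mouse 2 had the opposite effect, with log2 fold changes of -0.16 for *H2-Aa*, -0.02 for *H2-Ab1*, -0.01 for *H2-Eb1*, -0.40 for *H2-DMa*, -0.64 for *H2-DMb1* and -0.21 for *Cd74*. Only *Ciita* stayed above 0, at 0.24, and the median was -0.16. With all mice weighted by how well they fitted the rest (limma sample weights, with a weight of 0.332 for OP mouse 1), 1 of the 7 genes, *Ciita*, had an unadjusted p below 0.05 (adjusted p = 0.833), against 5.93% of all genes.

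**Figure D3:**
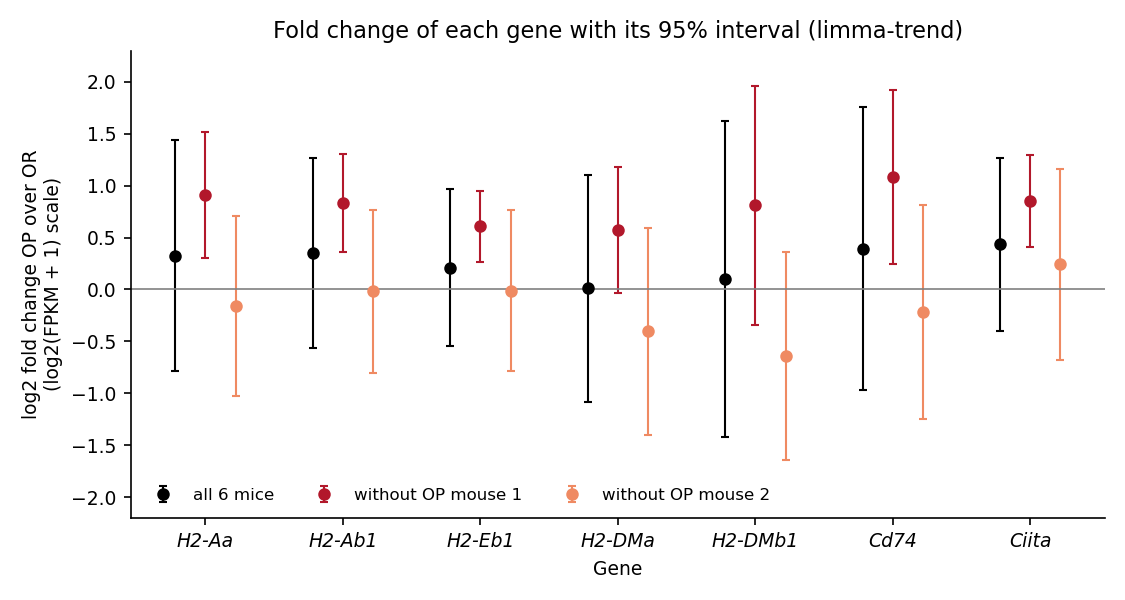
Log2 fold change OP over OR of the 7 genes on the log2(FPKM + 1) scale with its 95% interval from limma-trend, for all 6 mice, without OP mouse 1 and without OP mouse 2. With all mice every interval includes 0, without OP mouse 1 the values run from 0.57 to 1.08, and without OP mouse 2 from -0.64 to 0.24.

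The genes kept nearly the same order of levels within each mouse. *Cd74* was the most abundant in 6 of 6 mice, followed by *H2-Aa*, *H2-Ab1* and *H2-Eb1*, and *Ciita* was the least abundant. *H2-DMa* and *H2-DMb1* changed places, with *H2-DMa* the higher in OP mice 1 and 3. The ratio of *H2-Aa* to *H2-Ab1*, the chains of I-A, was 1.03, 1.40 and 1.16 in the OP mice, against 1.196, 1.21 and 1.22 in the OR mice, so the alpha chain was the higher in every mouse. The ratio of *Cd74* to *H2-Ab1* was 1.61, 2.98 and 2.07 in the OP mice, against 2.32, 2.09 and 1.89 in the OR mice. It was highest in OP mouse 2 and lowest in OP mouse 1, and OP mouse 3 lay among the OR mice. The ratio of *H2-DMa* to *H2-DMb1* was 1.06, 0.538 and 1.11 in the OP mice, against 0.863, 0.983 and 0.890 in the OR mice, with the lowest value in OP mouse 2. The ratio of *H2-DMa* to *H2-Aa* was 0.0725, 0.0719 and 0.0844 in the OP mice, against 0.111, 0.0859 and 0.0934 in the OR mice, where each OP mouse lay below each OR mouse. This was the lowest p of the 6 ratios tested (two-sided exact permutation p = 0.1, the smallest possible, and 0.6 after Benjamini-Hochberg adjustment over the 6 ratios).

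The other class II chains had another order of the mice. *H2-DMb2*, the paralog of *H2-DMb1*, had 4.03, 2.03 and 14.82 FPKM in the OP mice and 2.91, 2.52 and 1.47 FPKM in the OR mice. *H2-Ob*, the beta chain of DO, had 1.25, 0.59 and 6.69 FPKM in the OP mice and 1.14, 0.95 and 0.94 FPKM in the OR mice. *H2-Oa*, the alpha chain of DO, had 1.27, 0.57 and 4.37 FPKM in the OP mice and 1.62, 1.29 and 1.01 FPKM in the OR mice. These genes and *H2-Eb2*, which failed the filter on low values, were highest in OP mouse 3, and both DO chains were lowest in OP mouse 2, the mouse with the highest *H2-Aa*, *H2-Ab1* and *Cd74*. DO is known to be largely confined to B cells, dendritic cells and thymic epithelium. None of the chains tested was called (adjusted p from 0.945 to 0.957 by limma-trend).

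The remaining steps of the class II pathway had no common direction. Of these 17 genes, all tested, 7 had fitted values above 0 and 10 below, the median log2 fold change was -0.03, and 0 were called (0 also at an unadjusted limma-trend p below 0.05). Among the 8 genes of endosomal processing, *Ctss*, the cathepsin that makes the last cuts in the invariant chain, had 369.02, 279.01 and 300.67 FPKM in the OP mice and 300.75, 278.98 and 212.38 FPKM in the OR mice. OP mouse 1, lowest in the class II genes, was here the highest. *Ctsl*, *Ctsz* and *Ctsd* were likewise highest in OP mouse 1, and the rest of the 8 genes were highest in other mice. Among all genes tested, 10.1% were highest in OP mouse 1. *Lgmn*, an asparaginyl endopeptidase, had the largest difference of the group, with 24.23, 16.45 and 45.16 FPKM in the OP mice and 40.38, 37.24 and 51.38 FPKM in the OR mice (log2 fold change -0.68, adjusted p = 0.945). *Ctsh* had a log2 fold change of -0.37, *Ctsd* of -0.09, *Ctsb* of -0.05 and *Ifi30*, a thiol reductase of endosomes, of -0.03. *Marchf1* and *Marchf8*, ubiquitin ligases that remove class II molecules from the surface, had log2 fold changes of 0.21 and 0.02.

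The 7 genes of the DNA-binding factors on which CIITA docks lay between -0.22 and 0.16 in log2 fold change. These are *Rfx5*, *Rfxap* and *Rfxank* for RFX, *Nfya*, *Nfyb* and *Nfyc* for NF-Y, and *Creb1*. *Rfxank* was the only one of the 17 genes whose groups were apart, a share below the 8.44% of all genes, with 8.45, 9.3 and 9.03 FPKM in the OP mice and 8.3, 7.0 and 8.39 FPKM in the OR mice (log2 fold change 0.16, adjusted p = 0.945). *Rfx5* was highest in OP mouse 3, at 6.54 FPKM, and *Nfyb* in OP mouse 2, at 12.67 FPKM. The range of *Nfyb* over the 6 mice was from 9.64 to 12.67 FPKM, narrow beside the 4.04-fold range of *Ciita* among the OP mice alone.

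Genes of the interferon gamma axis, the best known inducer of *Ciita*, had fitted values in both directions. Of the 12 tested, 5 had fitted values above 0 and 7 below, the median log2 fold change was -0.19 (0.02 without OP mouse 1), and 0 were called. OP mouse 1 was the lowest in 7 of the 12, close to the 54.1% of all genes tested in which it was the lowest. In 2 of them, *Gbp2* and *Cxcl10*, named after their values had been seen, OP mouse 2 was also the highest. Both held in 7.68% of all genes. *Irf1*, an interferon-induced transcription factor, had 140.3, 132.63 and 123.14 FPKM in the OP mice and 91.06, 99.86 and 68.05 FPKM in the OR mice. Each OP mouse lay above each OR mouse, with OP mouse 1 the highest, so *Irf1* did not follow the order of the class II genes among the OP mice. Its log2 fold change was 0.62 (unadjusted p = 0.00626, adjusted p = 0.805 by limma-trend), the only one of the 12 higher at an unadjusted p below 0.05, which 0.503% of all genes were. The receptor chains *Ifngr1* and *Ifngr2* had log2 fold changes of 0.02 and 0.13, and *Gbp3*, a guanylate-binding protein, had -0.81 (adjusted p = 0.945). *Ifng* itself was at or below 0.28 FPKM in every mouse and was not tested.

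The class I pathway, which presents peptides from inside the cell and has the CIITA relative *Nlrc5* as its transactivator, held 4 of 11 genes with OP mouse 1 the lowest and OP mouse 2 the highest, against 7.68% of all genes. These were *Tap1*, *Psmb8*, *Psmb9* and *Nlrc5*, named after their values had been seen. *Tap1*, a subunit of the peptide transporter, had 6.83, 30.89 and 19.78 FPKM in the OP mice and 26.43, 26.37 and 20.18 FPKM in the OR mice. *Nlrc5* had 0.7, 4.42 and 1.82 FPKM in the OP mice and 2.63, 2.9 and 1.67 FPKM in the OR mice. Of the chains themselves, *H2-K1* lay between 1004.31 and 1257.58 FPKM over the 6 mice and *B2m* between 821.04 and 1498.31 FPKM, the latter lowest in OP mouse 1 and highest in OR mouse 1. The median log2 fold change of the 11 genes was -0.18, which became 0.06 without OP mouse 1 and -0.37 without OP mouse 2, and 0 were called (adjusted p from 0.945 to 0.996 by limma-trend).

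In bulk tissue, fewer cells of a type and less RNA per cell cannot be told apart, so markers of cells that carry class II molecules were set beside the genes. Most macrophage markers had the reverse order in OP mouse 2. Of 12 markers tested, 10 were lowest in OP mouse 2 and 0 were highest there, against 17.2% and 13.1% of all genes tested. The sum of the markers ran from 131.88 to 323.55 FPKM in the OP mice and from 234.09 to 302.61 FPKM in the OR mice, with the lowest sum in OP mouse 2. *C1qc*, a complement subunit made by tissue macrophages, had 10.58, 7.08 and 24.27 FPKM in the OP mice and 25.42, 28.46 and 29.48 FPKM in the OR mice. The median log2 fold change of the 12 markers was -0.73, and 8 of them were lower at an unadjusted limma-trend p below 0.05, against 3.53% of all genes, with 0 called. None of the 12 was at 0 in any mouse. *Cd74* and *H2-Aa* were highest in the mouse in which most macrophage markers were lowest, and the part of macrophages in the class II values was not tested.

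Most dendritic cell markers and the B cell markers were highest in OP mouse 3. Of 11 dendritic cell markers, 7 were highest in OP mouse 3, the others *Clec10a*, *Xcr1*, *Clec9a* and *Cd209a* were highest in OR mouse 2, and 8 of the 11 passed the filter. *Irf8*, a factor of dendritic cell development, had 19.24, 33.09 and 42.52 FPKM in the OP mice and 38.88, 26.81 and 31.22 FPKM in the OR mice. *Clec10a* had the largest difference of these markers, with a log2 fold change of -0.94 (unadjusted p = 0.00214, adjusted p = 0.710 by limma-trend). The summed dendritic cell markers ran from 28.42 to 56.7 FPKM in the OP mice and from 39.93 to 50.42 FPKM in the OR mice. All 10 B cell markers, of which 5 passed the filter, were highest in OP mouse 3, and *Cd79a*, a part of the B cell receptor, had 5.67, 3.05 and 39.83 FPKM in the OP mice and 5.34, 3.51 and 4.2 FPKM in the OR mice. The summed B cell markers ran from 9.28 to 101.68 FPKM in the OP mice, with the lowest sum in OP mouse 2, and from 9.68 to 16.39 FPKM in the OR mice. *H2-DMb2*, *H2-Oa*, *H2-Ob* and *H2-Eb2* shared with these markers that OP mouse 3 was the highest, which 24.6% of all genes tested did. None of the dendritic cell or B cell markers was at 0 in any mouse, and their part in the class II values was not tested.

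**Figure D4:**
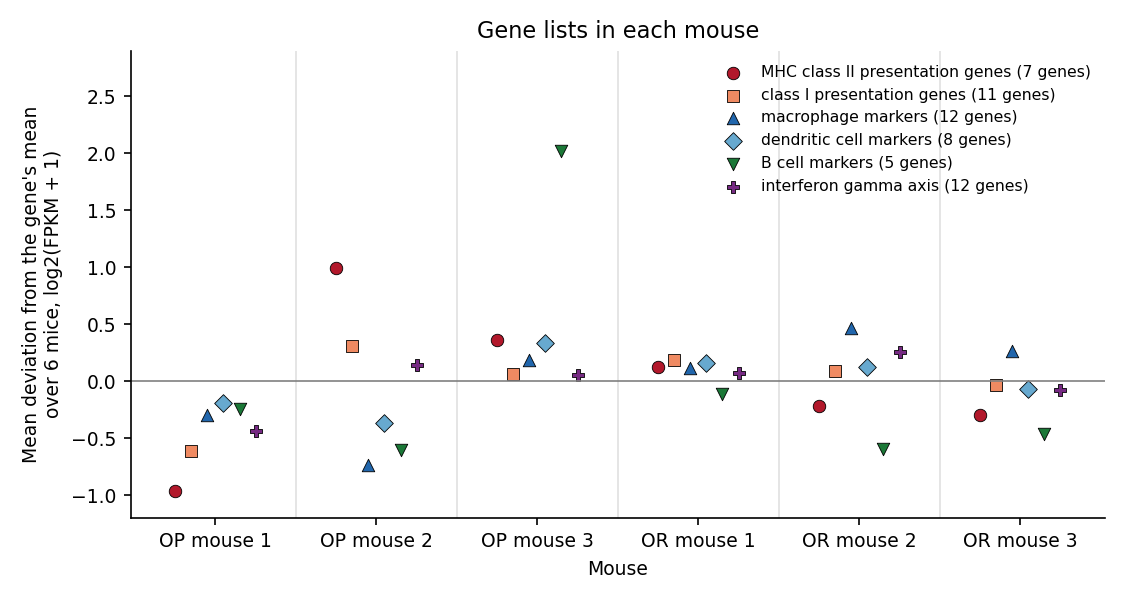
Mean deviation of each gene list from its genes' means over the 6 mice, in log2(FPKM + 1), for each mouse. The 7 class II genes run from -0.97 in OP mouse 1 to 1.00 in OP mouse 2, where the macrophage markers are at -0.74 and the B cell markers at -0.61, and the B cell markers peak in OP mouse 3 at 2.02.

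Among the remaining marker lists, only the epithelium held genes that were highest in OP mouse 2. Of 10 epithelium markers, 6 were highest in OP mouse 2, against 13.1% of all genes tested. In OP mouse 1, 1 of them was lowest, and in OP mouse 2 also 1, against 54.1% and 17.2% of all genes. The median log2 fold change of the 10 markers was 0.07. Their sum ran from 11761.9 to 24018.9 FPKM in the OP mice and from 12605.4 to 25298.7 FPKM in the OR mice, with the highest OP sum in OP mouse 1. *Slc26a3*, a chloride and bicarbonate exchanger of colonocytes, had 301.27, 415.15 and 51.59 FPKM in the OP mice and 62.84, 235.02 and 50.32 FPKM in the OR mice. *Car1*, the marker with the highest mean level, was lowest in OP mouse 2, with 14584.5, 1054.43 and 4835.73 FPKM in the OP mice. It had 5254.83, 15723 and 6338.65 FPKM in the OR mice and a log2 fold change of -0.94 (adjusted p = 0.945 by limma-trend). Costimulation genes, whose products sit on the presenting cell, and T cell genes, most of them not confined to CD4 T cells, were taken as 1 list. Their fitted values were below 0 in 10 of the 10 tested, with a median of -0.28 and 0 called. Of these, 8 were highest in OP mouse 3, against 24.6% of all genes. The pan leukocyte marker *Ptprc* had 4.91, 6.25 and 15.05 FPKM in the OP mice and 7.77, 8.93 and 7.35 FPKM in the OR mice. Of the markers of group 3 innate lymphoid cells, which can carry class II molecules, 3 of 6 were tested and 0 were highest in OP mouse 2. Markers of blood endothelium and of stroma, 8 each, were lower in OP mice in all cases by their fitted values, with medians of -0.80 and -0.90 and 0 called. At an unadjusted limma-trend p below 0.05, 7 of the endothelium and 6 of the stroma markers were lower, against 3.53% of all genes, and 5 and 6 had groups apart, against 8.44%. The part of any of these cells in the class II values was not tested.

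The genes most like the class II genes were sought by the root mean square distance, over the 6 mice, between the deviation of a gene from its own mean and the mean deviation of the 7 genes on the log2(FPKM + 1) scale. Among 4344 genes that varied at least 0.5 times as much as that mean, the 10 closest included *Clec14a*, *Orc1*, *Fads2*, *Cep131*, *Htr4*, *Myb*, *Fam83c*, *Rec8* and *Clca3a2*, at distances of 0.18 to 0.23 log2 units. The median of the 4344 was 0.64, and the 7 genes themselves lay at 0.08 (*H2-Aa*) to 0.34 (*H2-DMb1*). *Fads2*, a fatty acid desaturase, had 14.5, 71.26 and 53.03 FPKM in the OP mice and 43.45, 31.43 and 37.22 FPKM in the OR mice. *Clec14a*, an endothelial lectin, had 2.77, 8.64 and 6.56 FPKM in the OP mice and 5.5, 4.23 and 4.15 FPKM in the OR mice. In each of the 10, OP mouse 1 was the lowest and OP mouse 2 the highest, as follows from how they were chosen, and 0 were called.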

How the data were processed

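The authors cleaned the reads with SOAPnuke, mapped them to a gene set with Bowtie2, ran RSEM and deposited FPKM values to 2 decimals. The labels give Bowtie2 2.2.5 and RSEM 1.2.12, the paper's methods give other versions, and the submitters' processing notes name HISAT2 2.0.4. Read counts were not used here, so depth and counting error are unknown.

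Genes reaching 0.5 FPKM in 3 or more mice entered limma-trend (R 4.3.3 with limma 3.58.1) of OP against OR on log2(FPKM + 1) without covariates, with Benjamini-Hochberg adjustment over all 13520 genes, and single genes by exact permutation of the 6 mice (SciPy 1.17.1). The fit was tested on simulated data with the same SD in both groups, which does not cover the unequal spread of the 7 genes. The genes, the lists and the naming rule (all 7 genes, every pathway gene by value or range, up to 4 genes per other list by size or level, the 10 most similar genes) were chosen with earlier results of these data known. One of the most similar genes is not reported here. Alternatives were another scaling, pseudocount or filter, no trend, no fold change threshold, sample weights, a block for the replicate number and each mouse left out. Replicate numbers come from the labels. Mice are separate animals.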

Additional observations from a re-analysis of the deposited data

How the results depend on the processing

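The count of the 7 genes called stayed at 0 under every alternative run. The count at an unadjusted limma-trend p below 0.05 was 1 with sample weights and 0 to 5 with each mouse left out, and the count with groups apart was 0 to 5, in both cases 5 without OP mouse 1. With each mouse left out, the log2 fold change ran from -0.16 to 0.91 for *H2-Aa*, -0.018 to 0.83 for *H2-Ab1*, -0.011 to 0.61 for *H2-Eb1*, -0.40 to 0.57 for *H2-DMa*, -0.64 to 0.81 for *H2-DMb1*, -0.21 to 1.08 for *Cd74* and 0.20 to 0.85 for *Ciita*. The log2 ratio OP over OR ran from -0.20 to 0.25 for *Cd74* to *H2-Ab1*, -0.023 to 0.39 for *Ciita* to *H2-Ab1*, -0.14 to 0.073 for *H2-Aa* to *H2-Ab1*, -0.27 to 0.25 for *H2-DMa* to *H2-DMb1* and -0.22 to 0.0053 for *H2-Eb1* to *H2-Ab1*. For *H2-DMa* to *H2-Aa* it kept its sign and ran from -0.42 to -0.24. A pseudocount of 0.1 gave *H2-DMa* -0.0078, and a filter of at least 1 FPKM in all 6 mice dropped *Ciita*. The median SD of the 7 genes among the OP mice was 0.38 to 1.38 with an OP mouse left out, the lowest without OP mouse 1. This and the scaling alternatives for the order of the mice were chosen after seeing the data. With the replicate number as a block, 0 of the 7 genes had an unadjusted limma-trend p below 0.05 (475 of all genes did). The deviations of same-numbered mice from their group means had correlations of -0.16 to 0.07 over all genes tested. So few mice cannot show whether the numbers pair the mice. The causes were not tested. Depth is unknown.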
